A study of Homo sapiens with 4 samples.

Results

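The S100 calcium-binding protein genes described here were 10 of the 60671 gene identifiers measured in 22RV1 and PC3 prostate cancer cells with or without knockdown of DDX52, a DEAD-box RNA helicase. They were S100P, S100A2, S100A4, S100A6, S100A9, S100A10, S100A11, S100A13, S100A14 and S100A16. The set was selected on these same values, because S100P was lower with the DDX52 hairpin in both cell lines, so the ratios of the knockdown are given as descriptions. All 10 symbols were matched to an Ensembl identifier, and 7 of the genes reached 1 TPM (a level scaled to the library and already divided by transcript length) in the 22RV1 libraries, against 10 in the PC3 libraries.

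S100 proteins are small proteins that bind calcium through a pair of EF-hand loops, change shape on binding and then dock onto partner proteins. Most work as dimers inside the cell, on annexins, myosin or the cytoskeleton, and several are also released and act on cell-surface receptors such as RAGE, the product of AGER. Most of the family lies in a cluster on the long arm of chromosome 1, whereas S100P lies on chromosome 4. In prostate and other epithelial cancers the family is known for members whose levels differ widely between tumours and between cell lines.

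22RV1 is a prostate cancer line grown from a xenograft, and PC3 is a prostate cancer line from a bone metastasis. Each line carried either a control shRNA (shCON) or an shRNA against DDX52 (shDDX52), both delivered by lentivirus in a puromycin-selected vector, so the controls had also been infected and selected. One hairpin was used against DDX52, and 1 library was made from total RNA for each of the 4 conditions. With no replicate library, no difference below has an estimate of its error or a p-value, and the read depth behind a TPM value is unknown.

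The level of DDX52 itself was 4.88 TPM with shCON against 1.2 TPM with shDDX52 in 22RV1, and 9.20 TPM against 2.07 TPM in PC3. The knockdown libraries thus kept 24.6% and 22.5% of the control level. KLK3, which encodes prostate-specific antigen, was at 6.84 and 4.51 TPM in 22RV1 and listed at 0 in PC3. The 4 epithelial markers KRT8, KRT18, EPCAM and CDH1 were present in every library. Between 13504 and 13738 genes reached 1 TPM per library, mitochondrially encoded genes took 8.10 to 12.99% of the TPM and ribosomal RNA genes 0.0872 to 3.13%, the highest share being in PC3 shDDX52.

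The start regions of 3 members are shown first because they belong to the genes that the results turn on: S100P and S100A6, which were lower with shDDX52 in both lines, and S100A9, the most abundant member in PC3. Each run holds the 250 bases before the RefSeq start on GRCh38.p14, 5′ to 3′ along the gene's own strand, at chr4:6693628-6693877 on the plus strand for S100P, chr1:153357604-153357853 on the plus strand for S100A9 and chr1:153535992-153536241 on the minus strand for S100A6. Capitals mark the letters TATAAA.
S100P: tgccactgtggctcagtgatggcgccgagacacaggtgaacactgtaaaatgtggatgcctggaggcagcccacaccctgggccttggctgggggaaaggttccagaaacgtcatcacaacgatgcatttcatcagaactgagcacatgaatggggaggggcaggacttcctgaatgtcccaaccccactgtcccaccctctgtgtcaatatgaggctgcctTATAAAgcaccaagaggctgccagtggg
S100A9: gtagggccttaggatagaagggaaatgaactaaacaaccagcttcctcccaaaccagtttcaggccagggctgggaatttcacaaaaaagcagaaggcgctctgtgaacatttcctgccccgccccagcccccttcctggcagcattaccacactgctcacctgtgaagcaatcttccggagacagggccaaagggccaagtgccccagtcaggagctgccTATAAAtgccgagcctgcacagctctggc
S100A6: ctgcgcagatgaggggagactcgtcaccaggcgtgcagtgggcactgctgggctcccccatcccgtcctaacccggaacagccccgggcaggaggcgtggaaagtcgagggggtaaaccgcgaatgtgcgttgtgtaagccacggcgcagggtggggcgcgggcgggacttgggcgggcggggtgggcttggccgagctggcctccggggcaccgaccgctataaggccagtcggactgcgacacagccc
TATAAA begins 28 bases before the start in S100P and 29 bases before it in S100A9, and it is not in the S100A6 window. RefSeq gave 14 such windows for the 10 members, since some genes have more than 1 start. With both strands searched, TATAAA was found in windows of 4 members (S100P, S100A9, S100A4 and S100A13) and in 10.7% of the 35116 windows of all genes. CACGTG, the E-box that MYC and MAX bind, was in no member window and in 6.34% of all windows, and TGANTCA, the AP-1 motif, was in a window of 1 member, S100A2, and in 6.57% of all windows. These are matches of letters only, and no motif searched contains another.

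S100P (ENSG00000163993, chromosome 4, 6693069 to 6697170, plus strand, by GENCODE 29) encodes a secreted and intracellular member that binds ezrin and is known from many carcinomas. The 22RV1 library with shCON held 14.5 TPM and that with shDDX52 4.64 TPM, and the PC3 libraries held 30.7 TPM with shCON and 7.94 TPM with shDDX52. Both knockdown libraries were therefore below both control libraries. The shDDX52 level was 32.1% of the control in 22RV1 and 25.8% in PC3, with log2 ratios of −1.45 and −1.83 (each log2 ratio here is that of TPM plus 1). Of the 14438 genes with at least 1 TPM in a 22RV1 library, 152 had a lower ratio there, and 100 of 14262 did in PC3. The set was chosen because S100P was lower in these comparisons, so nothing is read from its place among the genes. In bulk RNA, fewer cells with a transcript and less of it per cell cannot be told apart.

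**Figure D1:**
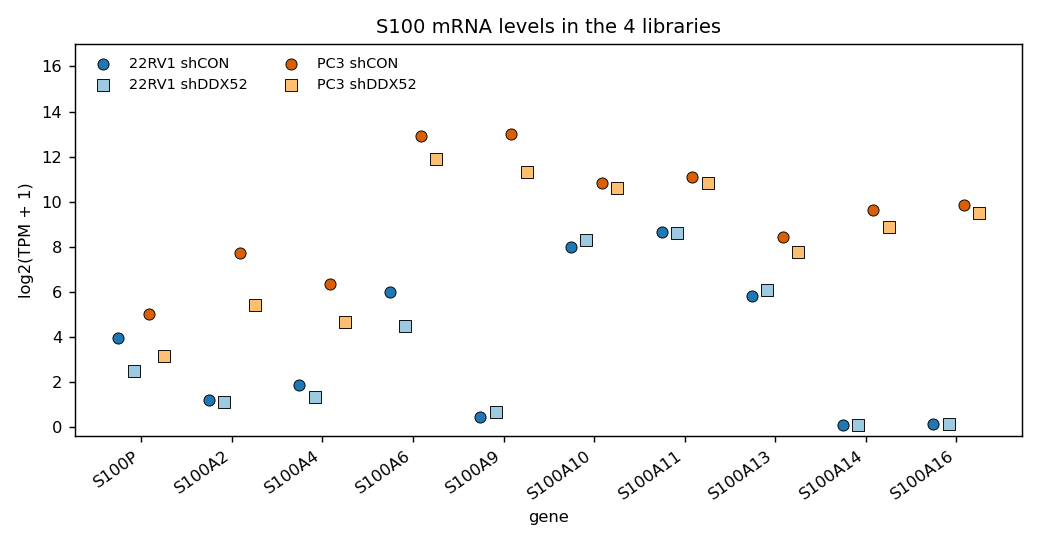
Level of each of the 10 S100 genes, as log2(TPM + 1) on the vertical axis, in 22RV1 shCON, 22RV1 shDDX52, PC3 shCON and PC3 shDDX52; each point is 1 library. S100P and S100A6 had lower squares than circles in both lines, S100A9, S100A14 and S100A16 lay near 0 in 22RV1, and every gene was higher in PC3 shCON than in 22RV1 shCON.

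S100A6 (ENSG00000197956, chromosome 1, 153534599 to 153536244, minus strand), also called calcyclin, binds CACYBP and annexins and is found in dividing epithelial cells. Its 22RV1 levels were 62.0 TPM with shCON and 21.3 TPM with shDDX52, and its PC3 levels 7598 TPM with shCON and 3747 TPM with shDDX52. It was the other member at or past 2-fold in both lines, at 34.4% of the control in 22RV1 and 49.3% in PC3. The log2 ratio of −1.50 in 22RV1 was close to that of S100P, whereas the −1.02 in PC3 lay just past 2-fold. That PC3 value depended on the scaling: it was −0.98 centred on the median of all genes, −0.89 scaled over nuclear protein-coding genes and −0.93 scaled without ribosomal RNA, mitochondrially encoded and the 20 highest genes.

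Taking a log2 ratio of 1 or more in size as 2-fold, 2 of the 7 members with at least 1 TPM were 2-fold lower in 22RV1 shDDX52 (S100P and S100A6) and none was 2-fold higher. Over all 14438 genes, 2.86% were 2-fold lower and 2.24% were 2-fold higher. In PC3, 5 of the 10 members were 2-fold lower (S100P, S100A2, S100A4, S100A6 and S100A9) and none was higher, where 3.44% of all 14262 genes were lower and 2.86% higher. With each of the 3 scalings above the PC3 count was 4, without S100A6. Of the 12175 genes that passed in both lines, 0.296% were 2-fold lower in both and 0.263% were 2-fold higher in both, and the 2 members lower in both were S100P and S100A6. Because the set was chosen for a fall in these same comparisons, nothing is read from these shares.

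The median log2 ratio of the 7 measured members was −0.08 in 22RV1, beside −0.08 for all genes, and 5 lay below 0 and 2 above. The median of the 10 members in PC3 was −0.89, beside −0.04 for all genes, and all 10 lay below 0. Scaling over nuclear protein-coding genes moved the median of all genes in PC3 by 0.12 on the log2 scale, to 0.08, and the members' median to −0.76. Under each scaling tried, all 10 member ratios in PC3 kept the sign below 0.

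**Figure D2:**
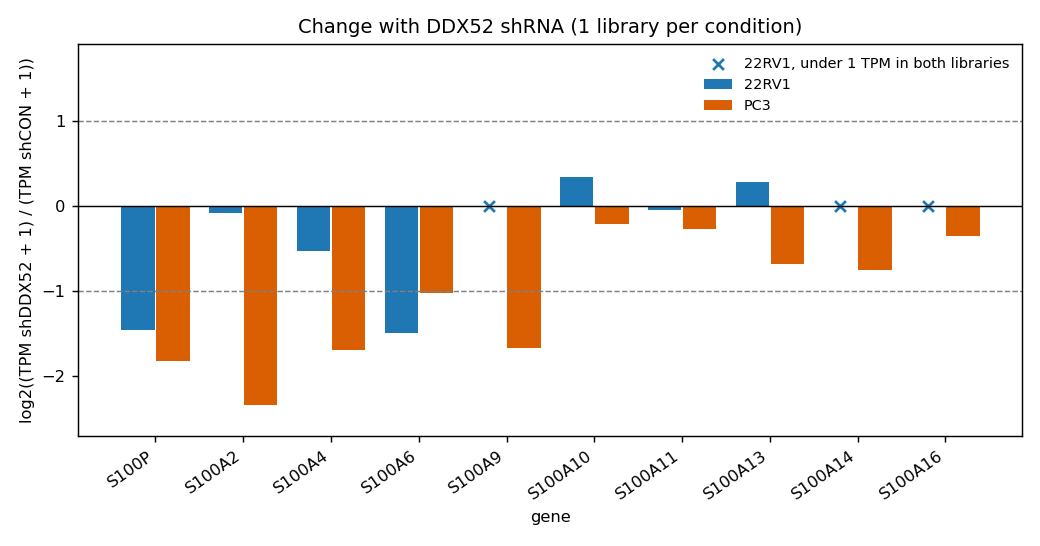
Log2 ratio of shDDX52 to shCON, from TPM plus 1, for the 10 S100 genes, with 22RV1 bars in blue and PC3 bars in orange, 1 library per condition and dashed lines at 2-fold; crosses mark genes under 1 TPM in both 22RV1 libraries. In PC3 all bars point down and 5 pass the lower line, whereas in 22RV1 only those of S100P and S100A6 do.

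S100A2 (ENSG00000196754, chromosome 1, 153561108 to 153567890, minus strand), a mainly nuclear member known from basal epithelial cells, had the lowest ratio of the set in PC3. It was at 210.4 TPM in PC3 shCON and 40.8 TPM in PC3 shDDX52, or 19.4% of the control (log2 ratio −2.34), and 55 of the 14262 genes had a lower ratio. In 22RV1 it was near the limit of the filter, at 1.29 and 1.16 TPM (log2 ratio −0.08), so its PC3 value has no counterpart of the same level in the other line.

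S100A4 (ENSG00000196154, chromosome 1, 153543613 to 153550136, minus strand), known as metastasin and a partner of nonmuscle myosin IIA, was at 80.9 TPM in PC3 shCON and 24.4 TPM in PC3 shDDX52. That was 30.2% of the control (log2 ratio −1.69). In 22RV1 it was at 2.56 and 1.47 TPM, 57.4% of the control (log2 ratio −0.53), which is short of 2-fold. The annotated span of S100A4 holds that of S100A3 on the same strand over 2044 bases, so reads could be split between them. S100A3 was at 7.17 and 3.34 TPM in the PC3 libraries and listed at 0 in 22RV1.

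S100A9 (ENSG00000163220, chromosome 1, 153357854 to 153361027, plus strand) encodes the heavier chain of calprotectin, which pairs with S100A8 and is abundant in neutrophils, monocytes and stressed squamous epithelium. It was at 8195 TPM in PC3 shCON, the 6th highest protein-coding gene of that library, and at 2581 TPM in PC3 shDDX52. The knockdown level was 31.5% of the control (log2 ratio −1.67). In 22RV1 it was at 0.34 and 0.55 TPM, under 1 TPM in both libraries.

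Its partner S100A8, which is not one of the 10, was at 878 TPM in PC3 shCON and 139 TPM in PC3 shDDX52, 15.9% of the control (log2 ratio −2.65), and was listed at 0 in both 22RV1 libraries. Both calprotectin chains were therefore lower in PC3 shDDX52, and unequally: S100A9 was 9.33 times the level of S100A8 in PC3 shCON and 18.5 times in PC3 shDDX52. Because S100A8, S100A9 and S100A12 are also leukocyte genes, leukocyte markers are given beside them. The 6 other markers of the leukocyte list summed to 47.5 TPM in PC3 shCON and 38.2 TPM in PC3 shDDX52, most of it CD68, at 38.4 and 35.6 TPM. CD14, a monocyte receptor, was at 7.22 and 1.29 TPM (log2 ratio −1.84), while PTPRC, which encodes CD45, was at 0.16 and 0.39 TPM and LYZ at 0.14 TPM and 0. FCER1G was at 0.99 and 0.15 TPM and CSF1R at 0.59 and 0.76 TPM. Of these 6 markers, the 2 that reached 1 TPM in PC3 shCON, CD14 and CD68, were both lower in PC3 shDDX52. PTPRC and CSF1R were higher there but stayed under 1 TPM. The part of these markers in the S100A9 difference was not tested.

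S100A10 (ENSG00000197747, chromosome 1, 151982915 to 151994390, minus strand), the p11 chain that forms a tetramer with annexin A2 and does not need calcium to do so, was at 249 TPM with shCON in 22RV1 and at 315 TPM with shDDX52. In PC3 it was at 1789 TPM with shCON and 1539.8 TPM with shDDX52. The log2 ratios were 0.34 and −0.22, opposite in sign and both short of 2-fold. Its annexin, ANXA2, had 0.37 TPM in the 22RV1 control and was listed at 0 in its knockdown, but at 1009.8 and 1039.5 TPM in PC3. S100A10 was therefore among the most abundant members in 22RV1 with almost no transcript of its usual partner, and in PC3 it was 1.77 and 1.48 times ANXA2.

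S100A11 (ENSG00000163191, chromosome 1, 152032506 to 152047907, minus strand), or calgizzarin, binds annexin A1 and takes part in membrane repair. It was at 397 and 383 TPM in the 22RV1 libraries and at 2154 and 1789 TPM in the PC3 libraries, in the order shCON, shDDX52. Its log2 ratios were −0.05 and −0.27, and the 22RV1 value became 0.02 when centred on the median of all genes. ANXA1 was at 0.27 and 0.34 TPM in 22RV1 and at 137 and 94.3 TPM in PC3, where S100A11 was 15.8 times its level with shCON and 19.0 times with shDDX52. The 8 annotated pseudogene copies of S100A11 that were matched were listed at 0 in all 4 libraries.

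S100A13 (ENSG00000189171, chromosome 1, 153618787 to 153631360, minus strand) is needed for the release of FGF1 and IL1A, which leave the cell without a signal peptide. It was at 54.6 and 66.4 TPM in 22RV1 and at 344 and 214 TPM in PC3, again in the order shCON, shDDX52. The log2 ratio was 0.28 in 22RV1 and −0.68 in PC3, where the knockdown level was 62.3% of the control. The span of S100A13 overlaps S100A1 on the other strand over 3435 bases and a processed transcript, AL162258.1, on the same strand over 5029 bases. That transcript was at 14.15 and 12.42 TPM in 22RV1 and 15.02 and 8.8 TPM in PC3, and whether the counting used strand was not stated.

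S100A14 (ENSG00000189334, chromosome 1, 153614255 to 153616986, minus strand) and S100A16 (ENSG00000188643, chromosome 1, 153606886 to 153613145, minus strand) are neighbours found mainly in epithelia, and S100A14 carries an EF-hand that has lost residues needed to hold calcium. S100A14 was at 0.07 TPM in both 22RV1 libraries, at 782 TPM in PC3 shCON and at 463 TPM in PC3 shDDX52, 59.2% of the control (log2 ratio −0.76). S100A16 was at 0.08 TPM in both 22RV1 libraries, at 929 TPM in PC3 shCON and at 726 TPM in PC3 shDDX52, 78.2% of the control (log2 ratio −0.36). S100A16 was the 5th and S100A14 the 6th of the 10 members by level in both PC3 libraries, and both were nearly undetected in 22RV1.

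Markers of other cell types also moved in the same libraries. In 22RV1 the 6 fibroblast markers summed to 21.9 TPM with shCON and 12.6 TPM with shDDX52, and LUM (16.5 and 6.91 TPM) and DCN (1.87 and 0.28 TPM) were 2-fold lower, as was the leukocyte-list gene CD68 (8.82 and 2.40 TPM). The other fibroblast marker at 1 TPM, COL1A1, was at 2.81 and 4.77 TPM. In PC3 the fibroblast markers summed to 8.94 and 8.65 TPM, with DCN listed at 0. The 4 endothelial markers summed to at most 0.03 TPM in 22RV1 and to 5.68 and 3.11 TPM in PC3, where PECAM1 was at 5.03 and 0.85 TPM and CDH5, in the opposite direction, at 0.61 and 1.98 TPM. The part of these markers in the S100P, S100A6 and other S100 differences was not tested.

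The order of the members by level differed between the lines. In 22RV1 shCON it was S100A11, S100A10, S100A6, S100A13, S100P, S100A4 and S100A2, with S100A9, S100A16 and S100A14 under 1 TPM. In PC3 shCON it was S100A9, S100A6, S100A11, S100A10, S100A16, S100A14, S100A13, S100A2, S100A4 and S100P. With 1 library each, no spread is available to say which neighbours in these orders differ. S100A6 and S100A9 changed places in PC3 shDDX52, and S100A6 and S100A13 did in 22RV1 shDDX52, while the remaining order was the same.

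Summed over the 10 genes, 22RV1 had 781 TPM with shCON and 794 TPM with shDDX52, or 0.0791 and 0.0801% of all TPM. It was 22114 TPM in PC3 shCON and 11134 TPM in PC3 shDDX52, or 2.23 and 1.13%. The sum of the 10 in PC3 shDDX52 thus came to 50.3% of that of its control, and S100A9 and S100A6 made up 86.2% of the difference. In 22RV1 the sums were nearly equal, and S100A10 and S100A11 made up 82.7% of it with shCON and 87.9% with shDDX52.

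The control libraries of the lines were also compared, although their levels were known when the set was chosen. All 10 members were at least 2-fold higher in PC3 than in 22RV1. Over all 15727 genes with at least 1 TPM in either, 19.9% were 2-fold higher in PC3 and 21.3% were 2-fold lower. S100A9, S100A14 and S100A16 passed the filter through PC3 alone, so that they had to differ, while the other 7 were at 1 TPM or more in both control libraries. Over those 7 the median log2 ratio was 2.84, beside −0.07 for all genes, and S100P had the lowest ratio of the 10.

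S100P was 2.12-fold higher in PC3 (log2 ratio 1.04, and 0.99 scaled over nuclear protein-coding genes, which is short of 2-fold). S100A11, S100A13 and S100A10 were 5.42-, 6.31- and 7.2-fold higher. S100A4 was 31.6-fold, S100A6 123-fold and S100A2 163-fold higher. Only 2 of the 15727 genes had a larger ratio than S100A9, at 0.34 TPM in 22RV1 shCON and 8195 TPM in PC3 shCON. The lines also differed in lineage markers, with 6 of the 7 prostate luminal markers at least 2-fold lower in PC3, and the part of lineage in the S100 levels was not tested.

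Of the 11 other S100 genes of the family list, 6 reached 1 TPM in a PC3 library and 1 did in a 22RV1 library. In PC3, S100A1, S100A5, S100A7, S100A8 and S100A12 were 2-fold lower with shDDX52 and S100A3 was short of it, with a median log2 ratio of −1.37 over the 6. Over all genes of that comparison 3.44% were 2-fold lower, and the median was −0.04. The list of these genes was written with earlier results of these data known, and they were measured in the same pair of libraries. Their values are therefore descriptions too. S100A7, or psoriasin, was at 9.40 and 2.95 TPM in PC3, S100A12 at 8.56 and 2.81 TPM and S100A5 at 8.12 and 2.58 TPM, so apart from S100A8 these were low values. S100A1, a regulator of calcium handling in muscle, was at 9.92 TPM in PC3 shCON and 2.69 TPM in PC3 shDDX52 (log2 ratio −1.57), and at 0.81 and 2.12 TPM in 22RV1 (log2 ratio 0.79). The remaining 5 genes stayed under 1 TPM in all libraries.

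Along chromosome 1, 9 of the 10 members and 8 of the 11 other S100 genes lie in 1 region. S100A10 and S100A11 stand apart at its start, 49.59 kb from each other, and the rest run from S100A9, 1375 kb after S100A10, to S100A1, 1645 kb after it. GENCODE 29 places no other protein-coding gene between S100A9 and S100A1. The 2 genes that stand apart had PC3 ratios of −0.22 and −0.27, whereas the 13 measured genes of the denser stretch ranged from −0.36 for S100A16 to −2.65 for S100A8.

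The genes on either side of that stretch were described after the S100 values had been seen. Of the 36 other protein-coding genes that start within 500 kb of it, 17 reached 1 TPM in a library. Their median log2 ratio in PC3 was −0.19 and their lowest −0.54, so none was 2-fold lower, where 3.44% of all genes were. The 1 gene that was 2-fold higher was SPRR2D, at 0.45 TPM in PC3 shCON and 3.3 TPM in PC3 shDDX52. Over all genes 2.86% were 2-fold higher in that comparison. SPRR2D was also the only one of the 17 on the S100A9 side, so the medians mainly describe the genes beyond S100A1. In 22RV1 the median was −0.07 and none of the 17 differed 2-fold, where 2.86% of all genes were lower and 2.24% higher. Few or none of 17 genes would be expected to pass at such shares, so nothing is read from these counts.

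**Figure D3:**
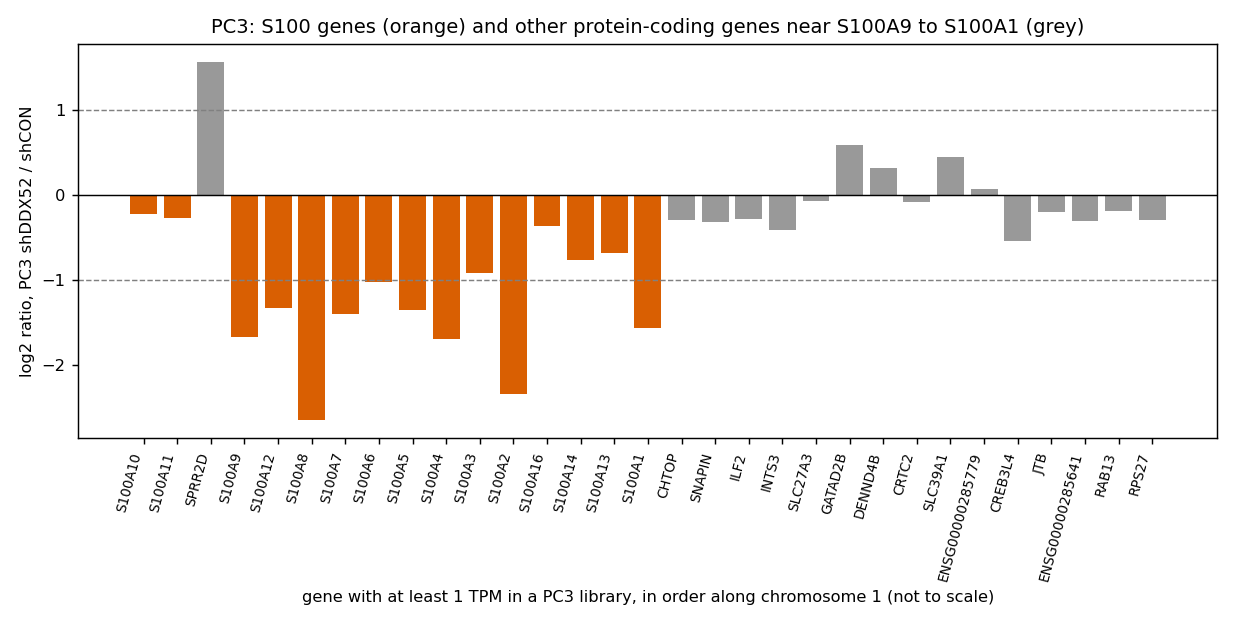
Log2 ratio of shDDX52 to shCON in PC3, from TPM plus 1 and 1 library each, for the S100 genes of chromosome 1 (orange) and the other protein-coding genes within 500 kb of S100A9 to S100A1 (grey), in their order on the chromosome and not to scale, with dashed lines at 2-fold. All orange bars point down, with S100A10 and S100A11 at −0.22 and −0.27. Those of S100A10, S100A11, S100A3, S100A13, S100A14 and S100A16 stop short of the lower line. No grey bar reaches that line either, and grey bars point both ways, the lowest being CREB3L4 at −0.54.

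Around S100P on chromosome 4, 13 other protein-coding genes start within 500 kb and 12 of them reached 1 TPM in a library. They were WFS1, PPP2R2C, MAN2B2, MRFAP1, ENSG00000170846, MRFAP1L1, BLOC1S4, KIAA0232, TBC1D14, TADA2B, GRPEL1 and SORCS2. In 22RV1 their log2 ratios lay between −0.31 and −0.03, and in PC3 between −0.34 and 0.46. None differed 2-fold in either line. Over all genes, 2.86% were 2-fold lower and 2.24% higher in 22RV1, and 3.44% and 2.86% in PC3. At such shares few or none of 12 genes would be expected to pass, so nothing is read from this count. The nearest of the 12 downstream, MRFAP1L1, starts 14.6 kb from S100P. It was at 34.2 and 33.4 TPM in 22RV1 and 10.6 and 9.43 TPM in PC3. Between the control libraries 6 of the 12 were 2-fold lower in PC3 and 1, SORCS2, was higher, at 0.13 TPM in 22RV1 and 2.38 TPM in PC3. Over all genes of that comparison 21.3% were 2-fold lower and 19.9% were 2-fold higher.

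**Figure D4:**
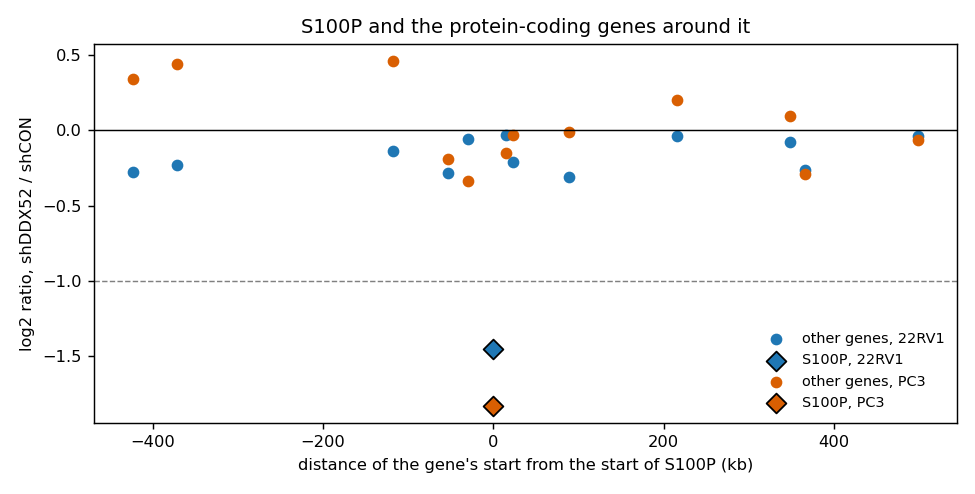
Log2 ratio of shDDX52 to shCON, from TPM plus 1, against the distance of each gene's start from that of S100P in kb, for 22RV1 (blue) and PC3 (orange); circles are the 12 measured neighbours, diamonds are S100P, and the dashed line marks 2-fold lower. The diamonds lie at −1.45 and −1.83, and every circle lies between −0.34 and 0.46.

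Of 23 genes listed as partners, receptors or cargo of S100 proteins, 17 were measured in 22RV1 and 22 in PC3. None was 2-fold lower with shDDX52 in either line, where 2.86% of all genes were in 22RV1 and 3.44% in PC3. The medians were −0.07 in 22RV1 and 0.16 in PC3. In 22RV1 none was 2-fold higher, where 2.24% of all genes were. Among the partners of S100P, EZR, which encodes ezrin, was at 115 and 101 TPM in 22RV1 and 98.0 and 126 TPM in PC3, and S100PBP was at 3.87 and 2.92 TPM and at 2.32 and 2.91 TPM. IQGAP1, a scaffold that S100P also binds, had the lowest ratio of the list in 22RV1, at 18.5 and 12.4 TPM (log2 ratio −0.54), and was at 34.2 and 31.2 TPM in PC3. CACYBP, the S100A6 partner, was at 218 and 208 TPM in 22RV1 and 101 and 94.2 TPM in PC3.

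In PC3, 3 of the 22 were 2-fold higher with shDDX52, where 2.86% of all genes were. AGER, the RAGE receptor, was at 6.63 TPM in shCON and 15.0 TPM in shDDX52 (log2 ratio 1.07), beside 11.1 and 16.1 TPM in 22RV1 (log2 ratio 0.50). FGF1, a growth factor released with S100A13, was at 2.70 and 7.38 TPM in PC3 and listed at 0 in 22RV1. PPFIBP1, or liprin beta 1, an S100A4 partner, was at 5.78 and 12.7 TPM in PC3 (log2 ratio 1.01). MYH9, the myosin heavy chain that S100A4 binds, was at 156 and 300.4 TPM in PC3 (log2 ratio 0.94), short of 2-fold, and at 148 and 164 TPM in 22RV1.

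Between the control libraries 9 of the 22 partners were 2-fold higher in PC3, where 19.9% of all genes were, and CACYBP was 2-fold lower. The higher ones were ANXA1, ANXA2, ANXA11, AHNAK, FGF1, IL1A, PLAT, PLAU and PLAUR. Of these, ANXA1, ANXA2, FGF1, IL1A, PLAT and PLAU were under 1 TPM in 22RV1 shCON. They passed the filter through PC3 alone and could only come out higher, so nothing is read from this count. AHNAK, a scaffold that binds S100A10 with annexin A2, was at 9.72 TPM in 22RV1 and 46.9 TPM in PC3. Among genes of the plasminogen system, in which S100A10 serves as a plasminogen receptor, PLAU was at 0.20 and 745 TPM, PLAUR at 3.67 and 114 TPM and PLAT at 0.64 and 9.30 TPM, each lower in 22RV1. ANXA11 was at 61.0 and 217 TPM and IL1A was listed at 0 in 22RV1 and at 13.5 TPM in PC3.

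Of 23 other EF-hand genes, among them the calmodulin genes, 21 were measured in each line and none differed 2-fold with shDDX52 in either. Over all genes, 2.86% were 2-fold lower and 2.24% higher in 22RV1, and 3.44% and 2.86% in PC3. At such shares few or none of 21 genes would be expected to pass. Of the 21, 13 had a ratio below 0 in 22RV1 and 13 did in PC3, with medians of −0.05 and −0.18. Over all genes 58.8% and 53.5% lay below 0, with medians of −0.08 and −0.04. In PC3 the members stood at a median of −0.89, in a set chosen because S100P was lower. No test of the difference from the EF-hand genes was made.

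The genes whose pattern was most like that of S100P were sought among 9971 protein-coding genes with at least 5 TPM in a library, by the Euclidean distance between log2(TPM + 1) values centred on their mean over the 4 libraries. The nearest was DDX52 itself, at a distance of 0.23, followed by TIGAR at 0.38, RPL36A-HNRNPH2 at 0.55, KCNK15 at 0.55 and NPIPB13 at 0.60. TIGAR, a regulator of glycolysis, was at 3.09 and 0.82 TPM in 22RV1 and 6.36 and 1.77 TPM in PC3. KCNK15, a potassium channel gene, was at 2.36 and 0.29 TPM and at 7.01 and 2.18 TPM. RPL36A-HNRNPH2 is a readthrough of 2 genes and NPIPB13 has near-identical copies, so their levels depend on how shared reads were assigned. A match over 4 libraries is a description, and nothing about shared function or control is read from it.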

How the data were processed

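Majorbio sequenced the RNA, the reads were mapped on its cloud platform, and the authors deposited TPM values per Ensembl gene for 22RV1 and PC3 cells with shCON or shDDX52. The submitters' processing notes name CASAVA, HISAT2 and hg19. The quantification program, annotation and strand setting are not given in the sources used here. TPM keeps no depth, and with 1 library per condition no p-value was computed.

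Of 60671 identifiers, 42020 had a symbol and 58453 were in GENCODE 29 (GRCh38), from which positions and gene types came. The notes name hg19 and the annotation behind the deposited values is unknown, so these positions may differ from those used for them. Promoter windows came from RefSeq on GRCh38.p14.

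Log2 ratios used a pseudocount of 1 TPM, which understates differences of low genes. Genes below 1 TPM in both libraries of a comparison were left out, except that genes around S100P and around the chromosome 1 stretch needed 1 TPM in any of the 4 libraries and were then the same in each comparison, and 2-fold meant a log2 ratio of at least 1 in size. The members and gene lists were chosen with earlier results of these data known, and the lists were written from memory. Named genes were all members, other S100 genes at 1 TPM, listed partners with a 2-fold difference plus 8 fixed ones, neighbours of S100P within 500 kb, the labels' check genes and the 5 genes most like S100P. Genes flanking the chromosome 1 stretch, the overlapping genes, IQGAP1 and the markers of other cell types fall outside that rule or were named after their values were seen. Alternatives covered the pseudocount (0.1 TPM), the filter (none, or 5 TPM), 2 other scalings and centring on the median. A few genes that this rule would name are not reported here. The work used matplotlib 3.10.9, pandas 2.3.3 and numpy 2.4.6 under Python 3.11.15.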

Additional observations from a re-analysis of the deposited data

Results flagged for a closer look

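3 S100 genes had shDDX52 ratios of opposite sign in the 2 cell lines. S100A10 had a log2 ratio of 0.34 in 22RV1 and −0.22 in PC3. S100A13 had 0.28 in 22RV1 and −0.68 in PC3. S100A1 had 0.79 in 22RV1, where it was at 0.81 and 2.12 TPM, and −1.57 in PC3. With 1 library per condition the difference between the lines was not tested for any of them.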

How the results depend on the processing

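Of 198 alternative values for 42 results, 175 stayed within 0.2 (log2) or 1.5 times of the reported value and on the same side of 2-fold, 19 moved further, 4 fell short of 2-fold and 0 changed direction past 2-fold. S100P in PC3 shCON against 22RV1 shCON was 0.99 when scaled over nuclear protein-coding genes, and S100A6 in PC3 shDDX52 was −0.98 centred, −0.89 with that scaling and −0.93 without ribosomal RNA, mitochondrially encoded and the 20 highest genes. With a pseudocount of 0.1 TPM the median of all 10 members between the lines was 5.93 against 5.53, and the genes 2-fold lower and higher with shDDX52 numbered 786 and 579 in 22RV1 and 847 and 733 in PC3, against 413, 323, 490 and 408. With a filter of 5 TPM they numbered 169 and 131 in 22RV1 and 238 and 211 in PC3, and 2158 genes were lower in PC3 shCON than in 22RV1 shCON, against 3346, since fewer genes were tested. The cause of the other moves was not tested. Each of the 4 conditions had 1 library, so there were no replicates to pair and no library could be left out. Unknown depth limits the values under a few TPM most.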
